A study of Homo sapiens with 6 samples.

Results

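The 45 genes described here encode the subunits, activators, inhibitor and assembly factors of the human proteasome. They were taken by symbol out of 61541 rows of a gene count table, and the list was drawn up with results of this same contrast known. Their fold changes are therefore given as a description, without a test. Of the 45 genes 44 passed the filter on low counts, a mean of at least 1 CPM (counts scaled to a common library size) over all libraries, against 14766 of all genes. RNA was sequenced from cells labelled A498, a line derived from a human clear cell renal carcinoma, to compare transcripts after knockdown of RNF26, an E3 ubiquitin ligase of the endoplasmic reticulum membrane. The shRNF26 group held 3 libraries of cells given a short hairpin RNA (shRNA) against RNF26, and the shcontrol group held 3 libraries of cells with a control shRNA. All 6 carry the treatment label transfection infection, and the medium was RPMI-1640 supplemented with fetal bovine serum. The labels name 1 cell line and 1 shRNA group, give no hairpin sequence or time after infection, and leave it unstated whether each replicate was a culture of its own. The p-values therefore reflect the spread among these 6 samples, part or all of which may be technical. In bulk RNA, fewer cells of a kind and less RNA per cell cannot be told apart.

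The proteasome degrades proteins that carry ubiquitin chains. Its 20S core is a barrel in which outer rings of alpha subunits gate the entry and inner rings of beta subunits hold the proteolytic sites. The 19S regulatory particle caps the core: non-ATPase subunits bind and remove ubiquitin, and a ring of ATPases unfolds the substrate and feeds it into the barrel. Dedicated chaperones assemble both parts. The membrane-anchored transcription factor NFE2L1 is known for raising transcription of proteasome genes through antioxidant response elements when proteasome activity is low.

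RNF26 (ENSG00000173456) had 68.4, 69.2 and 68.3 TMM-scaled CPM in the shRNF26 libraries, against 2030, 1942 and 1945 in the shcontrol libraries. TMM scaling divides counts by a library size adjusted so that most genes keep their level. The log2 fold change was -4.84 (SE 0.040), with an adjusted p of 4.27e-24 in edgeR's quasi-likelihood test with Benjamini-Hochberg adjustment. Gene counts do not tell an endogenous transcript from an introduced copy. The libraries held 16682871 to 18021718 counts, and the limit that a count of 0 allows, 3 counts, was 0.166 to 0.180 CPM. These limits cover counting error only. Of 16 renal and clear cell carcinoma markers 11 lay below 1 CPM, and the summed level of the list was 261 to 279 CPM in shRNF26 and 256 to 267 CPM in shcontrol libraries. Most of that sum was EPAS1, at 194 CPM in shRNF26 and 170 CPM in shcontrol libraries. VIM and PAX8 had log2 fold changes of -1.37 and -0.45, and EGLN3, MME and EPAS1 of 0.76, 0.40 and 0.19. All 8 squamous or basal epithelial markers lay above 1 CPM, with sums of 1560 to 1636 CPM in shRNF26 and 2090 to 2231 CPM in shcontrol libraries. Of these markers 5 had a negative and 3 a positive log2 fold change, from -0.96 to 0.25. The 4 immune markers were below 1 CPM, as were 2 of 3 endothelial and 3 of 4 fibroblast markers. The fibroblast sum, mostly COL1A1, was 81.9 to 88.2 CPM in shRNF26 and 55.2 to 66.2 CPM in shcontrol libraries. The identity of the cells thus rests on the labels, and the part of these marker differences in the results below was not tested.

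Across the proteasome genes the shRNF26 libraries were slightly lower, and the difference lay mostly in the 19S regulatory particle. Of the 44 tested genes 18 were called lower, 4 were called higher and 22 were not called, at an adjusted p below 0.05 over all genes. In all 22 of 44 were called, beside 41.4% of all tested genes. By direction, 40.9% of the proteasome genes were called lower beside 22.6% of all genes, and 9.09% were called higher beside 18.9%. These shares used the contrast by which the list was known, and nothing is read from them. Among the 2685 genes with a mean of 70.9 to 195 CPM, the middle range of levels of the proteasome genes, 58.4% were called, 33.8% lower and 24.6% higher, both above the shares of the whole table. The median log2 fold change of the proteasome genes was -0.08, beside 0.0079 over all tested genes and -0.028 over the 2685 genes at these levels. Few of the changes were large: 5 genes differed by at least 1.25-fold, or 11.4%, against 29.2% of all genes and 18.8% of the genes at these levels. Calls depended on how the libraries were scaled. When counts were divided by total counts alone, 12 proteasome genes were called higher and 9 lower. Over the whole table that scaling called 4449 genes, or 30.1%, higher and 2269, or 15.4%, lower, where TMM called 2785 higher and 3332 lower. Without shRNF26 replicate 3, 11 proteasome genes were called lower, and leaving out any single library left 1 or 2 called higher. The median of the proteasome genes minus that of all genes was -0.09 on the log2 scale, and -0.06 with no filter on low counts. A change of scaling moves all genes alike and leaves this difference as it is.

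Summed over the 45 genes, the level was 6460, 6544 and 6337 TMM-scaled CPM in the shRNF26 libraries and 7095, 7107 and 6992 in the shcontrol libraries. The groups did not overlap, with means of 6447 ± 104 and 7065 ± 63.1 CPM (SD, n = 3 each). As a share of all counts, without any scaling, the genes took 0.653% to 0.676% in shRNF26 and 0.679% to 0.690% in shcontrol libraries. With TMM scaling the 19S non-ATPase subunits held 62.1% of the summed difference and the 19S ATPases 21.2%, and each of the other roles 2.10% to 5.28%. Within the non-ATPase role PSMD2 and ADRM1 together held 66.2% of the difference. These shares depend on the scaling. As shares of all counts the non-ATPase subunits took 0.231% in shRNF26 and 0.254% in shcontrol libraries, and the ATPases 0.0794% in shRNF26 and 0.0873% in shcontrol libraries. The non-ATPase difference of -0.0231 percentage points was then larger than that of all 45 genes, -0.0192, because the 4 other roles were slightly higher in shRNF26 libraries, by 0.000476 to 0.00471 percentage points.

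**Figure D1:**
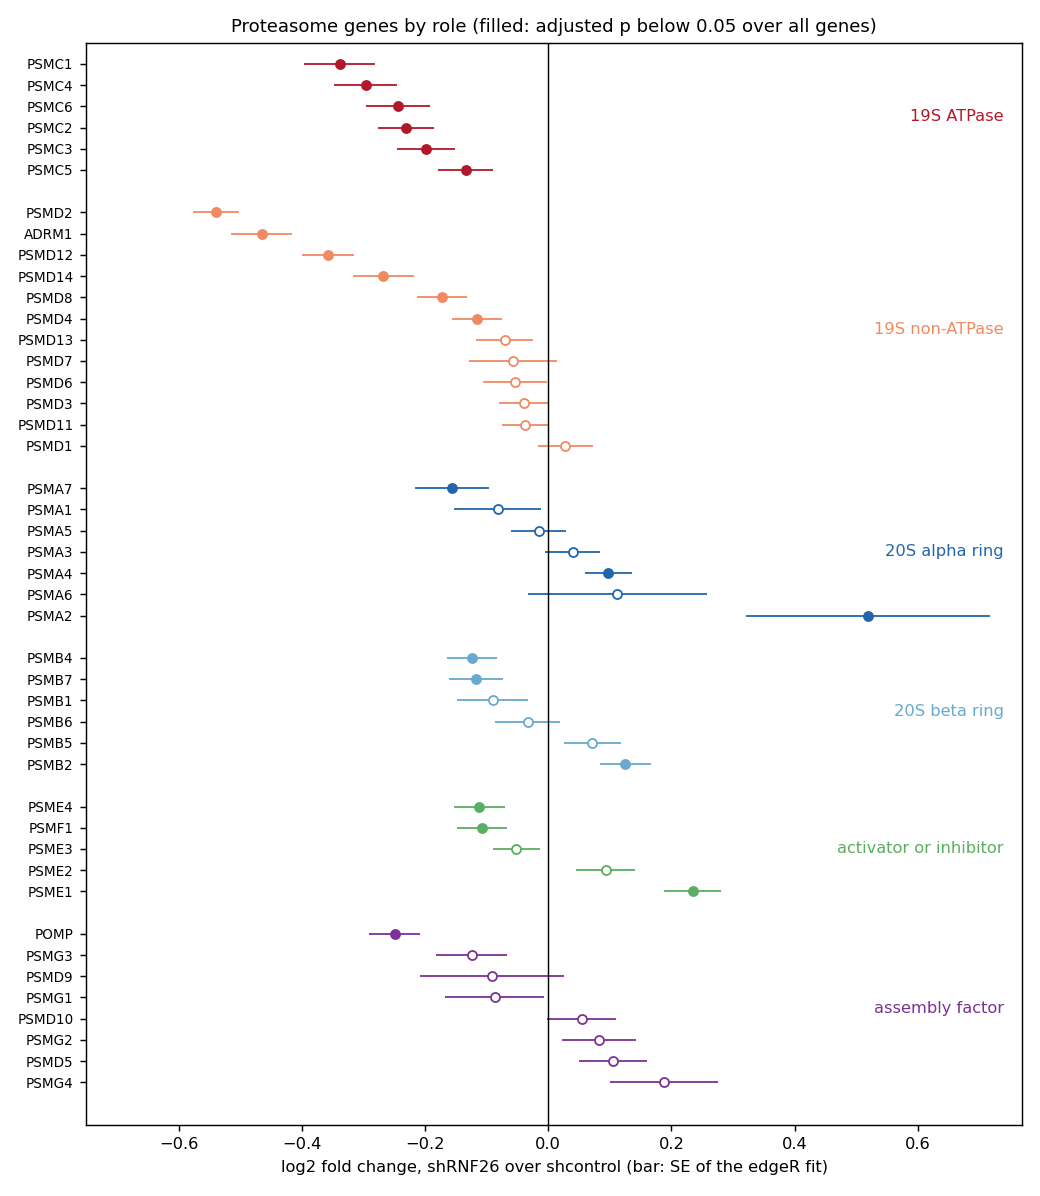
Log2 fold change of shRNF26 over shcontrol for the 44 tested proteasome genes (horizontal axis), grouped by role; points are the edgeR estimates with TMM scaling, bars their SE, and filled points have an adjusted p below 0.05 over all genes. All 6 ATPases and 11 of 12 non-ATPase subunits of the 19S particle lie left of 0, while the rings of the 20S core lie on both sides; with total-count scaling every point moves to the right by about the same amount.

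The 19S ATPases, which form the ring that unfolds substrates, were the role in which each gene was called lower. Over all tested genes 22.6% were called lower, and 33.8% of those at 70.9 to 195 CPM. PSMC1 (ENSG00000100764) had 80.4, 77.2 and 75.1 CPM in shRNF26 libraries, against 90.6, 97.0 and 107 CPM in shcontrol libraries. Every shRNF26 library lay below every shcontrol library, with a log2 fold change of -0.34 (SE 0.058), or 1.26-fold lower. PSMC4 (ENSG00000013275) had 121, 133 and 120 CPM in shRNF26 libraries, against 159, 157 and 144 CPM in shcontrol libraries. Its groups did not overlap either, and its log2 fold change was -0.30 (SE 0.051). The other 4 ATPases followed the same order of groups without overlap: the log2 fold change was -0.24 for PSMC6, -0.23 for PSMC2, -0.20 for PSMC3 and -0.13 for PSMC5. The median of the 6 was -0.24. Their summed level was 769 ± 18.3 CPM in shRNF26 and 900 ± 19.8 CPM in shcontrol libraries (SD, n = 3 each). With total-count scaling PSMC3 and PSMC5 were no longer called, which left 4 of 6. PSMC3 lost its call only there, and PSMC5 in 6 of 17 settings. In GENCODE 29, 75.8% of the exon length of PSMC1 lies opposite exons of NRDE2, which had 3078 counts over the 6 libraries, and 19.5% of that of PSMC5 lies opposite FTSJ3. The library kit marks strand, but whether the counting used it is not stated in the labels, so reads of such pairs cannot be told apart with certainty. Exons of other genes also lie opposite 30.7% of the exon length of PSMD7, 16.7% of that of PSMG2, 15.0% of that of PSMG4 and 10.8% of that of PSMD1, and the pseudogene AC010132.2 lies opposite 19.5% of that of PSMA2.

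Of the 12 non-ATPase 19S subunits 6 were called lower and none higher, with a median log2 fold change of -0.09. PSMD2 (ENSG00000175166), the scaffold of the base to which ubiquitin and shuttle proteins dock, had 419, 413 and 397 CPM in shRNF26 libraries, against 612, 598 and 576 CPM in shcontrol libraries. The gap between the groups exceeded the spread within them, with means of 410 ± 11.2 CPM in shRNF26 and 595 ± 18.1 CPM in shcontrol libraries (SD, n = 3 each). The log2 fold change of -0.54 (SE 0.038), 1.45-fold lower, was the lowest among the tested proteasome genes. ADRM1 (ENSG00000130706), a ubiquitin receptor that also anchors the deubiquitinase UCHL5, had 182, 192 and 167 CPM in shRNF26 libraries, against 261, 245 and 241 CPM in shcontrol libraries. Its groups were likewise apart, with a log2 fold change of -0.47 (SE 0.050). Of its exon length 11.4% lies opposite LAMA5, which held 79105 counts over the 6 libraries.

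The lid of the 19S particle was lower at PSMD12 and PSMD14. PSMD12 (ENSG00000197170), a structural lid subunit, had 166, 160 and 163 CPM in shRNF26 libraries, against 200, 212 and 214 CPM in shcontrol libraries, a log2 fold change of -0.36 (SE 0.042). PSMD14 (ENSG00000115233), the deubiquitinase that strips ubiquitin chains from substrates, had 115, 114 and 114 CPM in shRNF26 libraries, against 128, 145 and 140 CPM in shcontrol libraries. The log2 fold change was -0.27 (SE 0.049). Neither gene's groups overlapped. PSMD8, another lid subunit, and PSMD4, the second intrinsic ubiquitin receptor, were also called lower, by -0.17 and -0.11 on the log2 scale. Both calls were lost with total-count scaling, that of PSMD8 only there and that of PSMD4 in 7 of 17 settings. The lid subunits PSMD3, PSMD6, PSMD7, PSMD11 and PSMD13 were not called, with log2 fold changes of -0.07 to -0.04. PSMD7, which pairs with PSMD14 in the lid, had 49.0 ± 2.18 CPM in shRNF26 and 51.1 ± 5.60 CPM in shcontrol libraries (SD, n = 3 each). PSMD1, the scaffold on which ADRM1 docks, was not called, at 161 ± 5.28 CPM in shRNF26 and 158 ± 5.97 CPM in shcontrol libraries. Partners within the 19S particle thus differed in their fold change, which is a description and was not tested between genes.

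**Figure D2:**
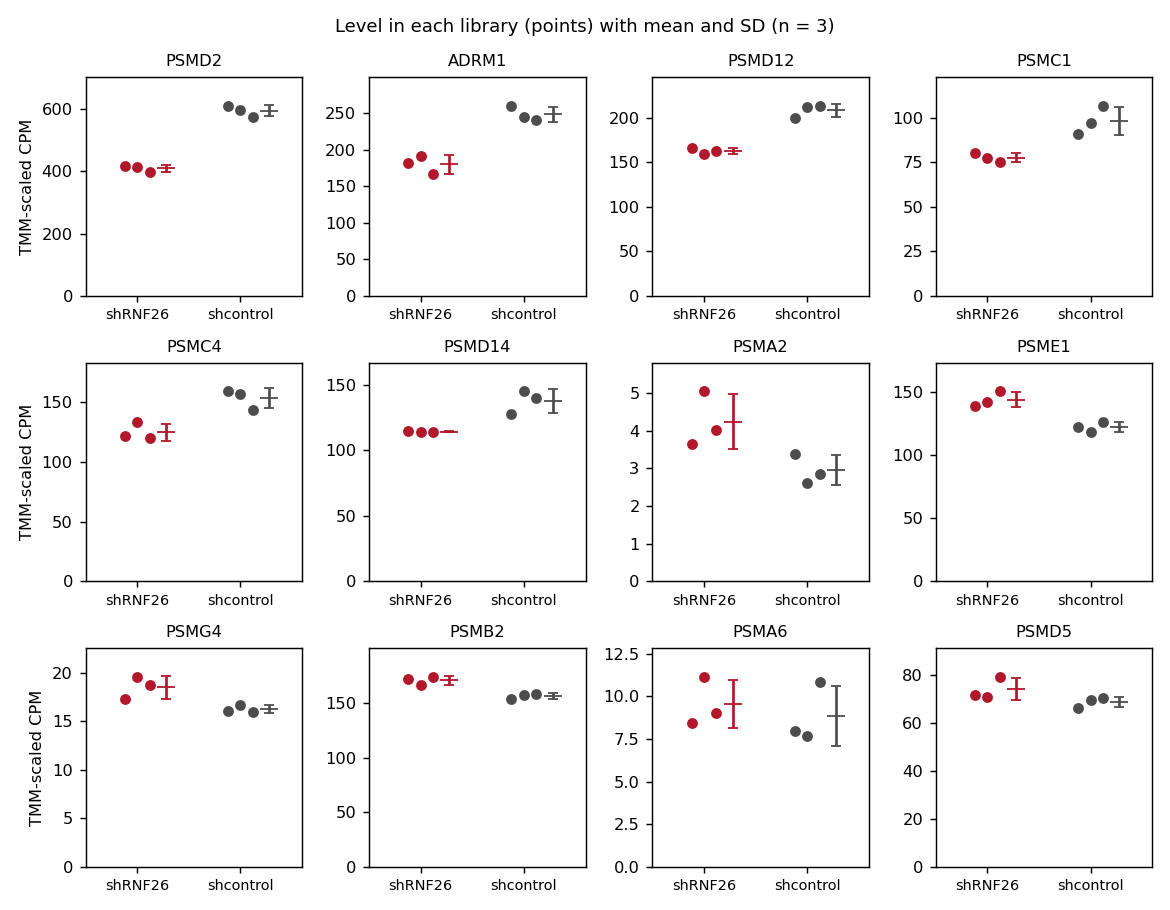
TMM-scaled CPM (vertical axes, each from 0) in each shRNF26 library (red) and each shcontrol library (grey) for the 6 proteasome genes with the lowest and the 6 with the highest log2 fold change; points are libraries, and the bars are the mean and SD (n = 3). The groups are apart for PSMD2, at 397 to 419 against 576 to 612 CPM, and overlap for PSMA6.

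In the 20S core the genes did not move one way. Of 13 tested core genes 3 were called higher and 3 lower, and the median log2 fold change was -0.02. Each direction held 23.1% of the core genes, beside 18.9% of all tested genes called higher and 22.6% called lower. Among the alpha subunits, which form the gate, PSMA2 (ENSG00000106588) had 3.66, 5.05 and 4.01 CPM in shRNF26 libraries, against 3.39, 2.62 and 2.86 CPM in shcontrol libraries. The groups were close but did not overlap, and the log2 fold change of 0.52 (SE 0.198) rests on 376 counts over the 6 libraries. Its call was lost in 8 of 16 other settings, among them DESeq2. PSMA4 was called higher at 243 ± 3.25 CPM in shRNF26 against 227 ± 2.70 CPM in shcontrol libraries, a log2 fold change of 0.10 (SE 0.038). That call was lost whenever any of the 6 libraries was left out. PSMA7 was called lower at 443 ± 41.1 CPM in shRNF26 against 494 ± 41.3 CPM in shcontrol libraries, although its groups overlapped, and this call was lost in 9 of 17 settings. PSMA6 (ENSG00000100902) had 8.44, 11.1 and 9.02 CPM in shRNF26 libraries, against 7.98, 7.67 and 10.8 CPM in shcontrol libraries. Its groups overlapped and it was not called, with a log2 fold change of 0.11 (SE 0.145). PSMA1, PSMA3 and PSMA5 were not called, with log2 fold changes of -0.08, 0.04 and -0.02.

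The catalytic beta subunits lay close to their control levels. PSMB5 (ENSG00000100804), which carries the chymotrypsin-like site, had 143, 140 and 132 CPM in shRNF26 libraries, against 127, 131 and 137 CPM in shcontrol libraries. The groups overlapped, and the gene was not called. PSMB6 (ENSG00000142507), with the caspase-like site, had 98.6, 102 and 95.2 CPM in shRNF26 libraries, against 104, 105 and 93.7 CPM in shcontrol libraries, again with overlap. PSMB7 (ENSG00000136930), with the trypsin-like site, had 251, 241 and 231 CPM in shRNF26 libraries, against 271, 265 and 249 CPM in shcontrol libraries. It was called lower with a log2 fold change of -0.12 (SE 0.044), but 1 shRNF26 library lay above the lowest shcontrol library, and the call was lost in 8 of 17 settings. Of the structural beta subunits, PSMB2 (ENSG00000126067) had 172, 166 and 174 CPM in shRNF26 libraries, against 153, 158 and 159 CPM in shcontrol libraries. It was called higher by 0.13 (SE 0.042) on the log2 scale, without overlap, and the call was lost in 4 of 17 settings. PSMB4 was called lower by -0.12, a call lost in 5 of 17 settings, and PSMB1 was not called at -0.09. PSMB3 (ENSG00000277791) had 0, 0 and 2 counts in shRNF26 libraries and 1, 0 and 0 counts in shcontrol libraries. Both groups were at or under the limit that a count of 0 allows, so no fold is given. The annotation behind the counts and the handling of reads that fit several places are not known here, so this count is not read as a low expression of PSMB3.

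Activators and the inhibitor bind the ends of the core in place of or beside the 19S cap. PSME1 (ENSG00000092010), a subunit of the interferon-inducible activator PA28, had 139, 142 and 150 CPM in shRNF26 libraries, against 122, 118 and 126 CPM in shcontrol libraries. Every shRNF26 library was above every shcontrol library, and the log2 fold change was 0.23 (SE 0.046), or 1.18-fold. Of the 4 genes called higher PSME1 was the only one whose call held in all 17 other settings. PSME2, its partner in PA28, was not called at 105 ± 3.10 CPM in shRNF26 and 98.6 ± 3.67 CPM in shcontrol libraries (SD, n = 3 each). PSME3, the nuclear PA28 subunit, was not called at a log2 fold change of -0.05. PSME4, which encodes the activator PA200, and PSMF1, the inhibitor PI31, were both called lower with a log2 fold change of -0.11. These calls were lost in 8 and 10 of 17 settings.

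Among the 8 assembly factors 1 was called lower and none higher. Lower calls made up 12.5% of them, beside 22.6% of all tested genes. POMP, the maturation factor that places beta subunits on the alpha ring, had 163 ± 4.31 CPM in shRNF26 and 193 ± 3.72 CPM in shcontrol libraries (SD, n = 3 each), a log2 fold change of -0.25 (SE 0.041). The alpha-ring chaperones did not follow it. PSMG4 (ENSG00000180822) had 17.2, 19.6 and 18.7 CPM in shRNF26 libraries, against 16.0, 16.7 and 16.0 CPM in shcontrol libraries. Its groups did not overlap, but it was not called at a log2 fold change of 0.19 (SE 0.088). PSMG1, PSMG2 and PSMG3 were not called, at -0.09, 0.08 and -0.12. Of the chaperones of the 19S base, PSMD5 (ENSG00000095261) had 71.7, 70.8 and 79.1 CPM in shRNF26 libraries, against 66.3, 69.5 and 70.2 CPM in shcontrol libraries. It was not called at 0.11 (SE 0.056) on the log2 scale. PSMD9 and PSMD10 were not called either, at -0.09 and 0.05.

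The calls that held were mostly in the 19S particle. Of the 18 genes called lower 9 were called lower in all 17 other settings: PSMD2, ADRM1, PSMD12, PSMD14, PSMC1, PSMC2, PSMC4, PSMC6 and POMP. The share of all genes whose calls held in every setting was not computed, so this count is a description only. Counting libraries rather than calls, 18 genes had every shRNF26 library below every shcontrol library and 6 had every one above, and 20 overlapped. Over all tested genes 25.9% were without overlap and lower, and 24.2% without overlap and higher. Of the 2685 genes at 70.9 to 195 CPM, 996 were without overlap and lower, and 739 without overlap and higher. All 18 genes called lower kept a negative and all 4 called higher a positive log2 fold change under the 4 scalings.

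**Figure D3:**
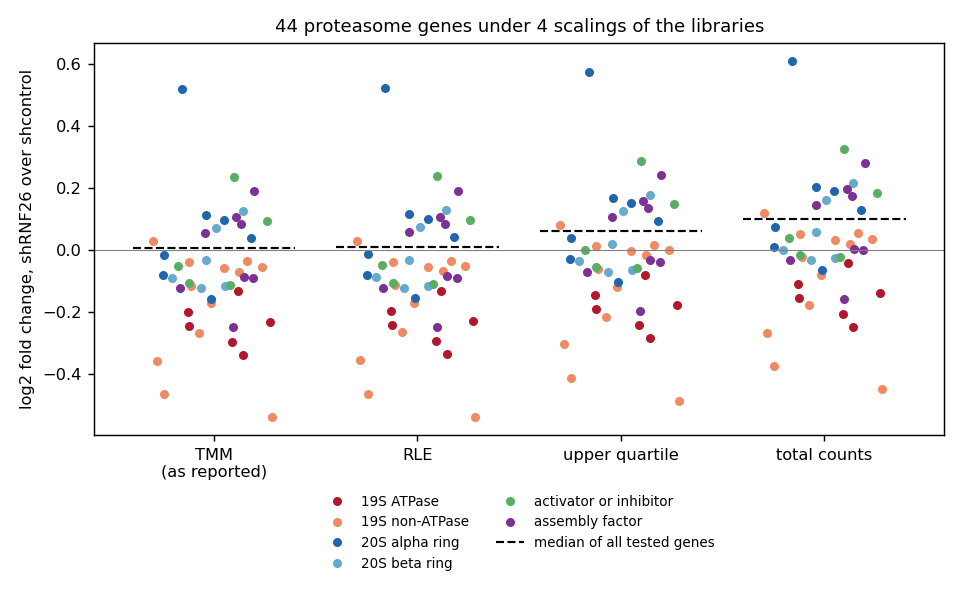
Log2 fold change of shRNF26 over shcontrol (vertical axis) for the 44 tested proteasome genes under 4 scalings of the libraries, coloured by role; the horizontal place within a scaling only spreads the points, and dashed lines are the median of all tested genes. That median was 0.0079 with TMM, 0.06 with upper-quartile and 0.10 with total-count scaling, and the proteasome genes move up with it.

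The levels themselves spanned a wide range, here as CPM per kilobase of coding length in GENCODE 29, which allows genes to be compared. PSMA7 was highest, at 596 ± 55.2 in shRNF26 and 664 ± 55.6 in shcontrol libraries (SD, n = 3 each). POMP had 384 ± 10.2 in shRNF26 and 457 ± 8.80 in shcontrol libraries. PSME3 had 420 ± 4.64 in shRNF26 and 436 ± 13.9 in shcontrol libraries, so POMP and PSME3 stood in a different order in each group. In shcontrol libraries PSMB7, at 315 ± 13.9, PSMA4, PSMB4, PSMB1, PSMB2 and PSMD3, at 246 ± 9.31, came next. PSMB4 and PSMB1 were each within 1 SD of the gene above them. The low end held PSMG4, PSMD9, PSMA6, PSMA2 and, with the doubt given above, PSMB3. PSMG4 had 38.0 ± 2.43 in shRNF26 and 33.4 ± 0.823 in shcontrol libraries. PSMD9 had 14.3 ± 0.376 in shRNF26 and 15.2 ± 1.84 in shcontrol libraries, and PSMA6 had 12.6 ± 1.88 in shRNF26 and 11.7 ± 2.31 in shcontrol libraries, within their spread of each other. PSMA2 had 6.04 ± 1.03 in shRNF26 and 4.21 ± 0.561 in shcontrol libraries. Subunits of the same ring, present in the particle in equal number, thus had very unequal counts per length. Whether the exon union or the coding length was used, the lowest 5 genes were the same, and 7 of the highest 10 were shared.

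The 4 members whose coding sequence is mostly covered by exons of another annotated gene on the same strand were among the low ones. The overlap was 97.1% of the coding length for PSMA2, with AC010132.3, 88.6% for PSMA1, with AC018523.2, 70.4% for PSMA6, with AL121594.1, and 58.7% for PSMD9, with AC069503.2 and WDR66. These 4 genes had 6.04 to 33.4 CPM per kilobase in shRNF26 and 4.21 to 35.4 in shcontrol libraries. The other 40, without PSMB3, had 33.7 to 596 with a median of 144 in shRNF26 and 33.4 to 664 with a median of 156 in shcontrol libraries. Most of the overlapping genes had few counts of their own, 4 for AC010132.3, 1 for AC018523.2, 16 for AL121594.1 and 2 for AC069503.2 over the 6 libraries. WDR66, which overlaps PSMD9, had 265. PSMB3 has no such overlap in that annotation. The part of the overlap in these levels was not tested, and the values of PSMA1, PSMA2, PSMA6 and PSMD9 are uncertain for this reason. Pseudogenes named after their parent gene held counts equal to 25.6% of those of PSMA6, 3.25% of those of PSMC1 and 2.13% of those of PSMA2. For every other proteasome gene with such copies the share was at most 0.618%.

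**Figure D4:**
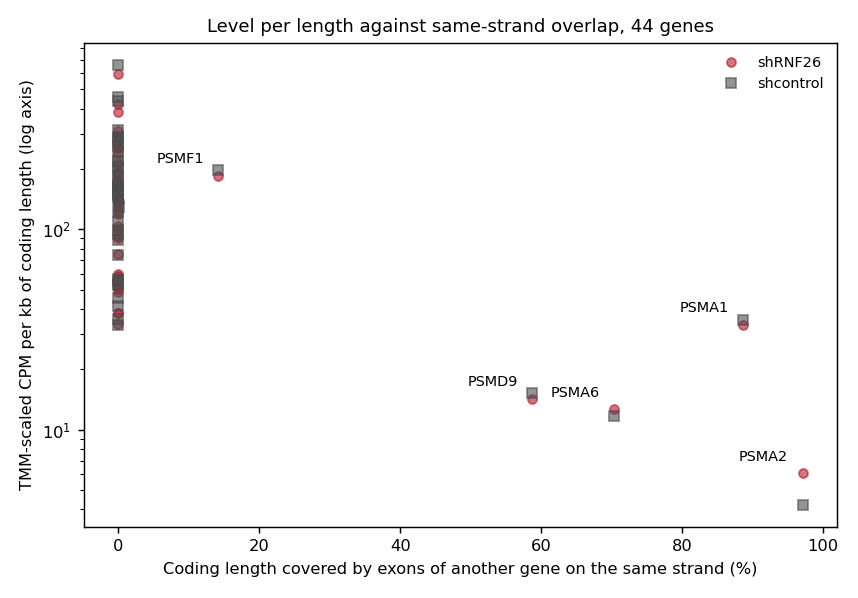
TMM-scaled CPM per kilobase of coding length (vertical axis, logarithmic) against the percentage of coding length covered by exons of another gene on the same strand (horizontal axis) for the 44 tested genes; red circles are shRNF26 means and grey squares shcontrol means of 3 libraries. PSMA1, PSMA2, PSMA6 and PSMD9, with an overlap above 50%, lie at 6.04 to 33.4 in shRNF26 and 4.21 to 35.4 in shcontrol libraries, near or below the lowest of the other genes.

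Promoter sequence was read for 39 of the 45 genes from RefSeq windows on GRCh38.p14, which run from 250 bases before to 50 bases after a transcription start. PSMA7, PSMB1, PSMB6, PSMB7, PSMD4 and PSMG3 are not in that table. The core of the antioxidant response element, TGANNNNGC on either strand, is the motif through which NFE2L1 and NFE2L2 are known to act, and stretches around it are shown for genes called lower (ADRM1, PSMD12, PSMD8), not called (PSMB5) and called higher (PSME1). The capitals mark the match in 59 bases written 5′ to 3′ on the strand of the gene.
ADRM1, chr20:62302734-62302792, plus strand: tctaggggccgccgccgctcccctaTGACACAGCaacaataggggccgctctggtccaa
PSMD12, chr17:67366709-67366767, minus strand: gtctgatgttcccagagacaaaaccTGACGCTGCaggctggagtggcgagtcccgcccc
PSMD8, chr19:38374492-38374550, plus strand: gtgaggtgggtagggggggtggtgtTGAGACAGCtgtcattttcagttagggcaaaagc
PSMB5, chr14:23035293-23035351, minus strand: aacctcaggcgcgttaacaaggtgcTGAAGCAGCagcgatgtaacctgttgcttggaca
PSME1, chr14:24136083-24136141, plus strand: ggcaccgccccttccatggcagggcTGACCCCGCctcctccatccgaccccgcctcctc
The element's core was thus found beside genes that differed in direction. It occurred in 60.4% of the 48 windows of the proteasome genes, 41.8% of all 35116 windows and 42.2% of the 15635 windows of tested genes. The median log2 fold change was -0.06 for the 24 tested genes with the core and -0.07 for the 14 without it.

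The ETS core CGGAAG, bound by the ETS family of transcription factors, was searched on both strands, as CGGAAG and CTTCCG. It was in 60.4% of the windows of the proteasome genes, 19.5% of all windows and 28.9% of the windows of tested genes. The median log2 fold change was -0.11 for the 24 tested genes with it and 0.05 for the 14 without. The list was drawn up with this contrast known, and the difference between these medians was not tested. The last 60 bases before the start are shown for PSMC1, PSMC4, PSMD14 and POMP, which were called lower in every setting, for PSMA4, which was called higher, and for PSMG4, which was not called, with the matches in capitals. PSMA4 has several starts, and the most upstream one is shown. PSMD2, the gene with the lowest fold change, is set beside them because none of the 4 motifs searched was found in its windows.
PSMC1, chr14:90256493-90256552, plus strand: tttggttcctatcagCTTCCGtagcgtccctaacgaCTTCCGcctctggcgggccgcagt
PSMC4, chr19:39971105-39971164, plus strand: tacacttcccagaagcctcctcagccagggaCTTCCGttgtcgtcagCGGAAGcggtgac
PSMD14, chr2:161308365-161308424, plus strand: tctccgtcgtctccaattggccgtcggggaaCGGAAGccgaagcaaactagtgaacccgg
POMP, chr13:28659070-28659129, plus strand: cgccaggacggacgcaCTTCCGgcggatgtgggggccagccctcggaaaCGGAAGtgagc
PSMA4, chr15:78540345-78540404, plus strand: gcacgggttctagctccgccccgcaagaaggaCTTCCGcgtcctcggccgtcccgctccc
PSMG4, chr6:3258887-3258946, plus strand: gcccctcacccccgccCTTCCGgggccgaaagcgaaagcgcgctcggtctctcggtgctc
PSMD2, chr3:184299181-184299240, plus strand: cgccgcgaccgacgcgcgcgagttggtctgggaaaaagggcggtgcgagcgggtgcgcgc
PSMC1, PSMC4 and POMP each hold 2 matches in this stretch, and PSMD14, PSMA4 and PSMG4 hold 1. CCAAT, the box bound by NF-Y, was in 41.7% of the windows of proteasome genes, 34.6% of all windows and 34.5% of the windows of tested genes. The motif of nuclear respiratory factor 1 (gene NRF1), which is not NFE2L1, was in 16.7% of the windows of proteasome genes, 8.32% of all windows and 13.6% of the windows of tested genes. A match describes these letters only and is no evidence of binding.

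The control of proteasome genes was read from 16 genes around NFE2L1, a list chosen with earlier results known. Of these 10 fell and 1 rose, by edgeR's quasi-likelihood test with Benjamini-Hochberg adjustment over all genes. The median log2 fold change was -0.23. Called lower were 62.5% of the list, beside 22.6% of all tested genes and 33.8% of those at 70.9 to 195 CPM. Called higher were 6.25%, beside 18.9% and 24.6%. NFE2L1 (ENSG00000082641) itself had 411, 388 and 389 CPM in shRNF26 libraries, against 428, 427 and 425 CPM in shcontrol libraries. It fell slightly, with a log2 fold change of -0.11 (SE 0.037, adjusted p = 0.0265, edgeR), and the call was lost in 6 of 16 settings. NFE2L2 (ENSG00000116044), the related factor of the oxidative stress response, had 82.3, 82.9 and 86.4 CPM in shRNF26 libraries, against 91.3, 102 and 103 CPM in shcontrol libraries. It fell by 0.24 on the log2 scale (adjusted p = 0.00152, edgeR), and its groups did not overlap. The larger differences were in the small MAF proteins, which dimerise with both factors. MAFF had 24.9, 22.3 and 21.3 CPM in shRNF26 libraries, against 150, 142 and 146 CPM in shcontrol libraries, a log2 fold change of -2.67 (adjusted p = 3.47e-17, edgeR). MAFK fell by 1.64 (adjusted p = 8.9e-14, edgeR) and MAFG by 0.79 (adjusted p = 2.09e-11, edgeR) on the log2 scale. BACH1, a repressor that competes for the same elements, fell by 0.66 (adjusted p = 2.25e-09, edgeR). The proteins that extract and process NFE2L1 at the membrane differed among themselves: SYVN1 and SEL1L fell by 0.43 and 0.28, while VCP, NGLY1 and DDI2 did not pass the test. HCFC1, a nuclear cofactor on the same list, rose by 0.25 (adjusted p = 6.82e-05, edgeR). With total-count scaling 5 of the 16 genes were called higher, a scaling that called 30.1% of all tested genes higher.

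**Figure D5:**
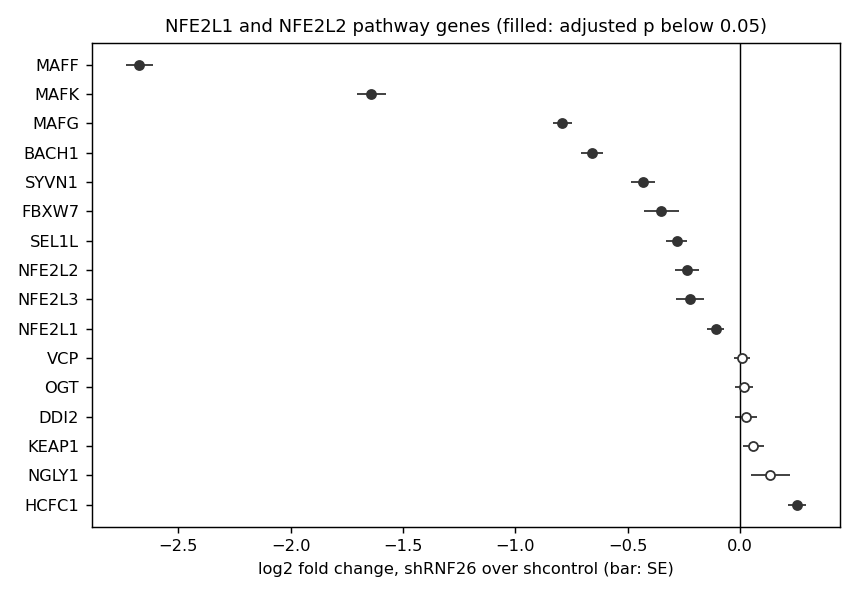
Log2 fold change of shRNF26 over shcontrol (horizontal axis) for the 16 tested genes of the NFE2L1 and NFE2L2 pathway; points are edgeR estimates, bars their SE, and filled points have an adjusted p below 0.05. MAFF, MAFK, MAFG and BACH1 lie between -2.67 and -0.66, further from 0 than NFE2L1 at -0.11 and NFE2L2 at -0.24.

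Among proteasome subunits outside the list, those of the immunoproteasome had few or no counts. PSMB8 had no counts in any library, as did the thymic PSMB11 and the testis form PSMA8, and PSMB9 had at most 1 count in a library. PSMB10, the third immune subunit, had 10.9, 11.4 and 10.3 CPM in shRNF26 libraries, against 9.36, 6.82 and 9.01 CPM in shcontrol libraries, and rose by 0.37 on the log2 scale (adjusted p = 0.0257, edgeR). SEM1, a small lid subunit, fell by 0.17 (adjusted p = 0.0114, edgeR). These were the 2 of 6 such genes that could be tested.

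Of 21 factors that bind the proteasome or deliver substrates to it 9 fell and 3 rose, with a median log2 fold change of -0.12. That is 42.9% lower and 14.3% higher, beside 22.6% and 18.9% of all tested genes. Among tested genes at 70.9 to 195 CPM the shares were 33.8% lower and 24.6% higher. ZFAND2A, an arsenite-inducible partner of the 19S particle, fell by 0.98 (adjusted p = 2.98e-07, edgeR). AKIRIN2, which brings proteasomes into the nucleus, fell by 0.43 (adjusted p = 6.6e-06, edgeR), and PITHD1 fell by 0.37 (adjusted p = 0.000926, edgeR). UBQLN2, a shuttle for ubiquitinated proteins, rose by 0.38 (adjusted p = 6.28e-06, edgeR). With total-count scaling the list gave 5 lower and 5 higher, where 15.4% of all tested genes were called lower and 30.1% higher.

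Of 6 ubiquitin genes and activating enzymes 3 fell and none rose, with a median log2 fold change of -0.14. Of all tested genes 22.6% were called lower and 18.9% higher. Among those at 70.9 to 195 CPM the shares were 33.8% lower and 24.6% higher. UBA6, at 142 CPM in shRNF26 and 153 CPM in shcontrol libraries, lay in that range, and the other genes of this list lay above it. UBB, a polyubiquitin gene, had 244, 269 and 223 CPM in shRNF26 libraries, against 303, 286 and 268 CPM in shcontrol libraries. The highest shRNF26 library lay just above the lowest shcontrol library, and the log2 fold change was -0.22 (SE 0.057, adjusted p = 0.00433, edgeR). With total-count scaling 1 of the 6 was called lower and 1 higher, beside 15.4% and 30.1% of all tested genes. Without shcontrol replicate 1, 5 were called lower, beside 21.9% of all tested genes.

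VCP, the ATPase that extracts ubiquitinated proteins ahead of the proteasome, did not pass the test. In its list 7 of the 16 genes fell and none rose, with a median log2 fold change of -0.13. The share called lower was 43.8%, beside 22.6% of all tested genes and 33.8% of those at 70.9 to 195 CPM. YOD1, a deubiquitinase that works with VCP, had 41.9, 44.0 and 44.1 CPM in shRNF26 libraries, against 117, 130 and 136 CPM in shcontrol libraries, a log2 fold change of -1.56 (adjusted p = 6.38e-14, edgeR). SELENOS, a VCP anchor of the endoplasmic reticulum, fell by 0.95 (adjusted p = 3.94e-11, edgeR). DERL2 and UBXN7 fell by 0.24 and 0.21 (adjusted p = 0.00587 and 0.00318, edgeR). With total-count scaling 2 of the 16 were called lower and 2 higher, beside 15.4% and 30.1% of all tested genes.

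As a comparison, other large complexes were read in the same way. Of the 8 subunits of the cytosolic chaperonin CCT 3 fell and none rose, with a median log2 fold change of -0.08. The share called lower was 37.5%, beside 22.6% of all tested genes and 33.8% of those at 70.9 to 195 CPM. All 8 CCT genes lay above that range, the lowest being CCT4 at 205 CPM in shRNF26 and 217 CPM in shcontrol libraries. TCP1 fell by 0.16 (adjusted p = 0.00206, edgeR), and CCT2 and CCT8 fell by 0.12 each (adjusted p = 0.0179 and 0.0215, edgeR). With total-count scaling none of the 8 was called lower and 1 was called higher, beside 15.4% and 30.1% of all tested genes. Leaving out single libraries gave 1 (without shRNF26 replicate 2 or shcontrol replicate 2) to 5 (without shcontrol replicate 1) called lower. Of 22 subunits of the COP9 signalosome and eIF3, whose architecture resembles the 19S lid, 9 fell and 2 rose, with a median of -0.06. Here 40.9% were called lower, beside the same shares of 22.6% and 33.8%. Called higher were 9.09%, beside 18.9% of all tested genes and 24.6% of those at 70.9 to 195 CPM. EIF3J, EIF3G and EIF3B fell by 0.39, 0.30 and 0.22 (adjusted p = 9.79e-07, 7.05e-05 and 0.000814, edgeR). EIF3C rose by 1.26 (adjusted p = 9.81e-07, edgeR), with 80.4, 121 and 65.7 CPM in shRNF26 libraries against 37.5, 35.7 and 38.6 CPM in shcontrol libraries, and is uncertain because of its near-identical copy EIF3CL. No test between the complexes was made, so whether any of these differences is particular to the proteasome was not tested.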

How the data were processed

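RNA sequencing of 6 libraries, grouped by their titles, was used. The authors deposited 1 table of whole-number gene counts. Although it is named for FPKM, its values are whole and sum to 16682871 to 18021718 per library, so they were treated as raw counts. Genome build hg19 is given per the submitters' processing notes, and the kit marks strand, per the labels' protocols. No source used here gives the aligner, counter, annotation release or strand setting. A gene name table paired 61369 IDs with symbols, and 2 blank rows held 0 counts.

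Counts were fitted with the quasi-likelihood test of edgeR 4.0.16 (R 4.3.3), two-sided, with TMM scaling, on the 14766 genes with a mean of at least 1 CPM, holding 99.7% of the counts. P-values were adjusted by Benjamini-Hochberg over all 14766 genes (threshold 0.05). Levels are TMM-scaled CPM. The fit was tested on simulated data. The biological coefficient of variation was 0.0507. Replicates differed by more than sampling noise, so 6 samples were counted. DESeq2 1.42.0, limma 3.58.1, other scalings and filters, pseudogene counts added to their parent genes, the replicate number as a block and leaving out each library were alternatives.

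The members and all lists were chosen with earlier results of these data known. Values in every library are given for the 6 lowest and 6 highest fold changes and for PSMB5, PSMB6 and PSMB7. RNF26, NFE2L1 and NFE2L2 were always named, and from each other list up to 4 called genes with the largest absolute change. A few genes that this rule selects are not reported here. The remaining members are named to account for each, and SYVN1, SEL1L and HCFC1 were named after their values were seen. Lengths and overlaps came from GENCODE 29, on another build than hg19, so its coordinates are not printed. Pseudogenes were found by name in the gene name table, as the parent symbol followed by P and any number. Copies named otherwise were not counted. Promoter sequences came from RefSeq (GRCh38.p14).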

Additional observations from a re-analysis of the deposited data

How the results depend on the processing

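None of the called log2 fold changes of proteasome genes, RNF26, NFE2L1 and NFE2L2 changed sign under the alternatives run. The counts below are of genes called. With total-count scaling the proteasome genes gave 12 higher and 9 lower with a median log2 fold change of 0.0066, the median of all tested genes was 0.10, and all genes gave 4449 higher. Of all tested genes 30.1% were then called higher and 15.4% lower. By role this scaling gave 0 lower alpha subunits, 2 higher and 0 lower beta subunits, 1 higher 19S non-ATPase subunit, 2 higher and 0 lower activators or inhibitor and 4 higher assembly factors. In the other lists it gave 0 lower other subunits, 5 higher and 5 lower associated factors, 5 higher NFE2L1 pathway genes, 1 higher and 1 lower ubiquitin genes, 2 higher and 2 lower VCP genes, 1 higher and 0 lower CCT subunits, and 4 higher and 4 lower COP9 or eIF3 subunits. With upper-quartile scaling the proteasome genes gave 8 higher and 11 lower with a median log2 fold change of -0.031 beside 0.061 for all genes. This scaling called 25.3% of all tested genes higher and 18.2% lower. It gave 0 lower alpha subunits, 2 higher and 0 lower beta subunits, 2 higher and 0 lower activators or inhibitor, 2 higher assembly factors, 0 lower other subunits, 1 higher ubiquitin gene, 1 higher VCP gene, and 1 higher and 1 lower CCT subunit. DESeq2 gave 1 higher and 0 lower alpha subunits, 1 lower beta subunit and 1 lower activator or inhibitor. A minimum of 0.1 CPM gave 2 higher proteasome genes, 0 higher alpha subunits, 1 lower beta subunit and 0 lower activators or inhibitor. No filter gave 2 higher proteasome genes, 0 higher alpha subunits and 0 lower activators or inhibitor. A minimum of 5 CPM gave 1 higher and 0 lower alpha subunits, the robust fit 0 lower alpha subunits, and added pseudogene counts 1 higher alpha subunit. DESeq2, size-factor scaling, the minimum of 5 CPM and the robust fit each gave 1 higher CCT subunit. The cause of these changes was not tested. Limma-trend kept each of these counts within 1.5 times.

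Same-numbered libraries deviated together with correlations of -0.03 to 0.09, and differently numbered ones with correlations of -0.12 to 0.12. These correlations cannot settle whether the replicate numbers pair the libraries. With the replicate number as a block the proteasome genes gave 3 higher and 18 lower, the alpha ring 1 higher, CCT 1 higher and all genes 2935 higher and 3479 lower.

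Leaving out 1 library at a time gave 1 to 2 higher and 11 to 17 lower proteasome genes, with a median of -0.10 to -0.06. These fits called 14.8% to 17.4% of all tested genes higher and 18.9% to 21.9% lower. The alpha ring gave 0 to 1 higher and 0 to 1 lower, the beta ring 0 to 1 higher and 0 to 2 lower, activators or inhibitor 0 to 2 lower, the 19S ATPases 5 to 6 lower and the 19S non-ATPases 5 to 6 lower. Other subunits gave 0 to 1 higher and 0 to 1 lower, CCT 0 to 1 higher and 1 to 5 lower, COP9 and eIF3 1 to 2 higher, and ubiquitin genes 3 to 5 lower. The log2 fold change of RNF26 was -4.86 to -4.83. Lengths from RefSeq proteins were planned and not run, as that table was not used here; coding length from GENCODE 29 took its place, chosen after seeing the data, as was the difference between the medians. PSMB3 had too few counts to be tested.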
